A study of Mus musculus with 143 samples.

Results

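The mouse mitochondrial genome carries 37 genes, and every gene whose symbol starts with mt- was taken: 13 that code for proteins, 2 for ribosomal RNAs (rRNA) and 22 for transfer RNAs (tRNA). These were 37 of 55573 gene IDs in the poly(A) tables and 37 of 55487 in the RiboMinus tables, and all 37 were matched in RefSeq on GRCm38.p6, chromosome MT. They were counted in 119 libraries, each made from 1 oocyte.

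The study compared oocytes of control mice with oocytes lacking catalytic subunits of the RNA exosome, which trims and degrades RNA from its 3' end in the nucleus and the cytoplasm. In the poly(A) assay, RNA was captured on oligo-dT beads. Oocytes labelled GV (germinal vesicle, the arrested stage before meiosis resumes) numbered 8 control and 15 Dis3 cKO. Those labelled GV3h (3 h of culture) numbered 8 control and 16 Dis3 cKO. Those labelled MII (the mature egg) numbered 8 control and 16 Dis3 cKO. In the RiboMinus assay, ribosome-depleted total RNA was primed with random hexamers. Adult GV oocytes numbered 8 control and 8 Dis3 cKO. Oocytes labelled p20 (postnatal day 20) numbered 8 each of control, Dis3 cKO, Exosc10 cKO and dcKO. The mutant mice were made with CRISPR/Cas9; the labels used here do not name a Cre driver, the control alleles, a strain or an age in days for the adults. GV and GV3h oocytes were dissected from ovaries and held in M2 medium, while MII eggs came from the oviducts of superovulated mice. Holding in medium, hormone treatment and stage therefore cannot be told apart in comparisons with MII. A diluted mix of ERCC spike-in RNA was added to each poly(A) lysate, and ERCC counts are also in the RiboMinus tables. Nothing in the labels says that the oocytes of a group came from separate animals, so p-values measure only the spread between these libraries.

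Mitochondrial DNA is transcribed from both strands into long precursors, which are cleaved at the tRNAs that lie between most of the other genes. The coding genes specify subunits of the respiratory chain and the ATP synthase: mt-Nd1 to mt-Nd6 and mt-Nd4l of complex I, mt-Cytb of complex III, mt-Co1 to mt-Co3 of complex IV, and mt-Atp6 and mt-Atp8 of the synthase. mt-Rnr1 and mt-Rnr2 are the small and large rRNAs of the mitochondrial ribosome. The oocyte holds an exceptionally large number of mitochondria and passes them on to the embryo. DIS3 and EXOSC10 are known as mainly nuclear RNases, and mitochondrial RNA is degraded by a separate machinery.

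Of the 37 genes, 16 had fewer than 20 counts in every one of the 119 libraries: 6 coding genes (mt-Co2, mt-Atp8, mt-Atp6, mt-Co3, mt-Nd3 and mt-Nd4l) and 10 tRNA genes. 9 tRNA genes were at 0 in every library (mt-Tw, mt-Tn, mt-Ty, mt-Ts1, mt-Td, mt-Tk, mt-Tg, mt-Th and mt-Te), and the remaining one of the 10, mt-Tr, had at most 15 counts. The 6 coding genes are neighbours: all 11 genes between mt-Co1, which ends at position 6872 of chromosome MT, and mt-Nd4, which starts at position 10167, were in this class, and the largest count of any of them was 15. The flanking genes were abundant, with up to 95843 counts for mt-Co1 and 52539 for mt-Nd4. No value for complex IV subunits 2 and 3 or for the ATP synthase genes could be obtained from these tables, and 7 coding genes carry all that follows.

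The stretch with few counts corresponds in layout to an annotated pair of nuclear pseudogenes on chromosome 1. Gm10925 (chr1:24613971-24614651, GRCm38.p6) is 681 bases long, as is mt-Atp6 (chrMT:7927-8607), and RefSeq lists mt-Atp6 among its synonyms. Gm10222 (chr1:24612404-24612700) is 297 bases long, as is mt-Nd4l (chrMT:9877-10173), and 1270 bases separate the pair against 1269 between mt-Atp6 and mt-Nd4l. These pseudogenes held almost no counts either, at most 10 for Gm10925 and at most 1 for Gm10222. How reads matching several places were counted is not given in the sources used here, and its part in the low counts was not tested. Of the 7 nuclear copies examined, Gm28438 was the one with more than 10 counts, and in the RiboMinus libraries it equalled 0.223% to 0.976% of the summed coding counts.

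**Figure D1:**
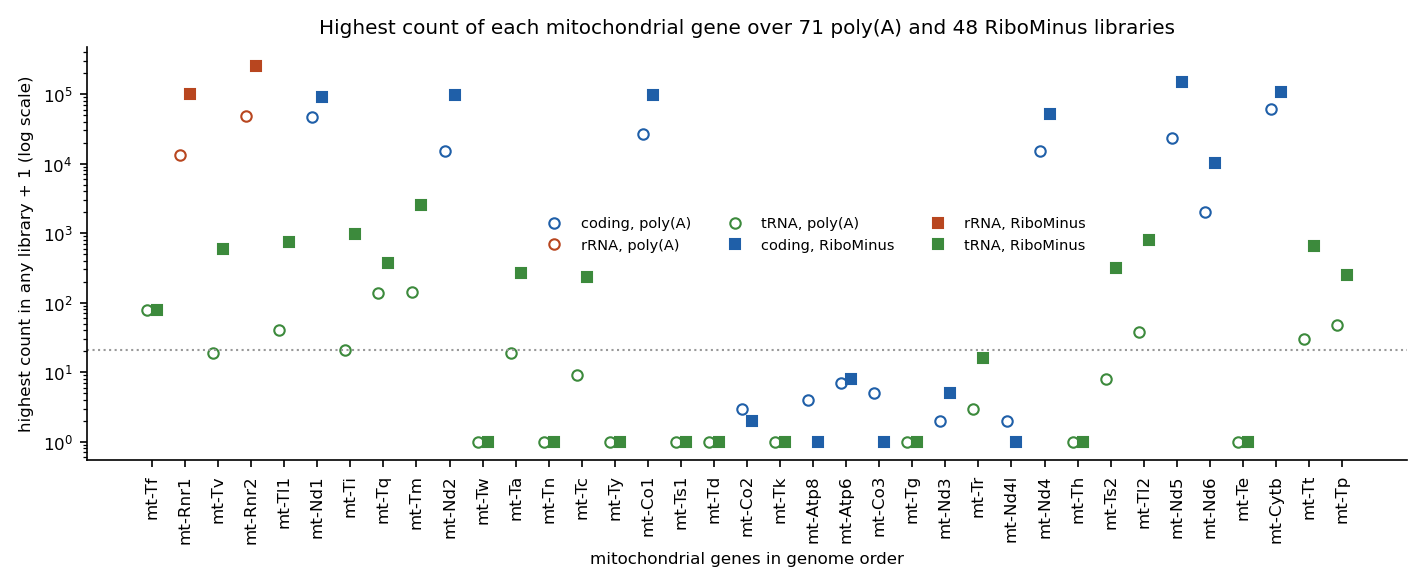
Highest count of each of the 37 mitochondrial genes (y axis, count + 1, log scale) over the 71 poly(A) libraries (open circles) and the 48 RiboMinus libraries (filled squares), in genome order along the x axis. The 11 genes between mt-Co1 and mt-Nd4 stay at 15 counts or fewer, below the dotted line at 20 counts, while both neighbours reach 14991 or more in each assay.

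After the filter on low counts, 16 members were tested in the poly(A) libraries (7 coding, 2 rRNA and 7 tRNA), 21 in the adult RiboMinus libraries (7, 2 and 12) and 17 in the p20 libraries (7, 2 and 8). The libraries held 4843964 to 15412200 gene counts in the poly(A) assay and 8492102 to 35429028 in the RiboMinus assay. Dis3 was lower in every group labelled Dis3 cKO or dcKO, with log2 changes of -3.63 to -2.18, and Exosc10 was lower by 5.22 in Exosc10 cKO and by 4.01 in dcKO on the log2 scale. At GV3h the Dis3 cKO also had less Exosc10 (log2 change -0.53, adjusted p = 0.00259). All 12 oocyte marker genes were at a median of 1 CPM (counts scaled to 1000000 gene counts per library) or more in all groups, with summed medians of 8829 to 22234 CPM, and 5 to 10 of 14 granulosa and cumulus cell markers reached that level, with summed medians of 74.8 to 180 CPM (153 CPM in control and 106 CPM in Dis3 cKO at GV, 112 and 124 CPM in the adults). The part of such cells in the mitochondrial values was not tested.

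Among members, mt-Rnr2 had the highest level per length in all 12 groups. In control GV oocytes of the poly(A) assay, the median level of mt-Rnr2 was 526.1 CPM per kb, followed by mt-Rnr1 at 321, mt-Nd1 at 285, mt-Cytb at 283, mt-Co1 at 266, mt-Nd5 at 116, mt-Nd2 at 80.4, mt-Nd6 at 65.8 and mt-Nd4 at 54.0. mt-Rnr2 was above mt-Rnr1 in 8 of 8 of these libraries, but mt-Rnr1 was above mt-Nd1 in 4 of 8, so those neighbours in the order did not separate. In adult control oocytes of the RiboMinus assay, the same measure ran from 2178 CPM per kb for mt-Rnr2 through 1492 for mt-Rnr1, 943 for mt-Nd1, 835 for mt-Co1, 817 for mt-Cytb, 691 for mt-Nd2 and 461 for mt-Nd5 to 269 for mt-Nd4 and 224 for mt-Nd6. Either mt-Nd4 or mt-Nd6 was the lowest of the 9 in all 12 groups. mt-Nd6 is the one coding gene of the opposite strand; strand use in the counting is not given in the sources used here, so its reads and antisense reads cannot be told apart. The assays capture different RNA, so levels are compared within an assay. How far the depletion in the RiboMinus assay removed mt-Rnr1 and mt-Rnr2, and how evenly over libraries, was not tested. Their RiboMinus values are therefore counts left after depletion.

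The loss of Dis3 in GV oocytes was accompanied by more mitochondrial RNA relative to all genes. In the poly(A) libraries the 13 coding genes together made up 0.0979% to 0.203% of gene counts in the 8 control GV oocytes (median 0.144%) and 0.169% to 0.775% in the 15 Dis3 cKO oocytes (median 0.317%). Just 1 mutant library, number 16, lay inside the control range, and it also had the highest ratio of gene to ERCC counts of its group (208, against a group median of 104). In the edgeR test, 10 of the 16 tested members were higher and 0 lower in Dis3 cKO, where 13.6% of all 17389 genes tested were called higher and 8.33% lower (21.9% in either direction). All 7 tested coding genes and both rRNA genes were among them, with a median log2 change of 1.30 for the coding genes and 1.152 for the rRNA genes, against 0.035 for all genes tested.

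The complex I gene mt-Nd2 had the lowest adjusted p of the coding genes at GV. Its level was 70.4 to 117.5 CPM in the 8 controls (median 83.5) and 120.9 to 492.3 CPM in the 15 Dis3 cKO oocytes (median 213.8), a log2 change of 1.45 (SE 0.25, adjusted p = 4.9e-06). Every mutant oocyte was therefore above every control. mt-Nd1 ranged from 206 to 512 CPM in controls and from 395 to 2778 CPM in Dis3 cKO (log2 change 1.45, SE 0.30), and mt-Nd5 from 173 to 280 and from 232 to 1314 CPM (1.44, SE 0.26). mt-Cytb, the complex III subunit, rose by 1.30 (SE 0.26), mt-Nd4 by 1.16 (SE 0.25) and mt-Nd6 by 1.01 (SE 0.19). The smallest rise of a coding gene was that of mt-Co1, the catalytic subunit of complex IV, at 0.94 (SE 0.25, adjusted p = 0.00309), with 239 to 560 CPM in controls and 379 to 1897 CPM in Dis3 cKO. Its call was lost with counts summed over runs of 4 consecutive title numbers (0.85, edgeR adjusted p = 0.113), where 8 of 22 members and 1932 of all 22403 genes were called. mt-Rnr1 rose by 1.18 (SE 0.19) and mt-Rnr2 by 1.13 (SE 0.20). The rRNA share of Dis3 cKO was uneven, with means of 0.189% in title numbers 1 to 4, 0.471% in 5 to 8 and 0.204% in 9 to 16. Control means were 0.117% in 1 to 4 and 0.114% in 5 to 8. Of the 7 tested tRNA genes only mt-Tq passed the test (1.17, SE 0.33); the other 6 had log2 values of 0.24 to 0.92 at a few counts per library.

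The rise was smaller, though still present, when libraries were scaled to ERCC counts, which sets each gene against a fixed amount of added RNA. The ratio of gene to ERCC counts had a median of 138 in control and 104 in Dis3 cKO GV oocytes, so the mutants yielded fewer gene counts per spike-in. On this scale 9 of the 16 members were higher and 0 lower, where 7.27% of all genes were called higher and 13.3% lower, and the median log2 change of all genes was -0.23. mt-Nd2 had a log2 change of 1.13 (SE 0.20), mt-Nd5 of 1.10 (SE 0.21), mt-Nd1 of 1.09 (SE 0.26), mt-Rnr1 of 0.85 (SE 0.18) and mt-Co1 of 0.60 (SE 0.20). mt-Tq no longer passed (0.76, adjusted p = 0.0886). Libraries 6 and 8 of the mutants had the highest coding shares, 0.642% and 0.775%. Without them, and with TMM scaling, 10 members were again called higher, where 3945 of all 17266 genes were called. In that TMM fit mt-Nd2 had a log2 change of 1.26.

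At GV3h the same comparison gave fewer calls: 5 members were higher and 0 lower, where 22.9% of all genes were called higher and 15.7% lower (38.6% in either direction). These were mt-Rnr1 (log2 change 0.74, SE 0.18), mt-Nd1 (0.74, SE 0.28), mt-Nd2 (0.85, SE 0.24), mt-Nd6 (0.58, SE 0.19) and mt-Cytb (0.74, SE 0.25). mt-Nd2 stood at 63.4 to 124 CPM in the 8 controls (median 82.1) and at 118 to 255 CPM in the 16 Dis3 cKO oocytes (median 166). The 3 lowest mutant oocytes lay within the control range and the other 13 above it. Per ERCC count 6 were higher, with mt-Nd4 (0.52, SE 0.18) in addition, where 17.5% of all genes were called higher and 10.6% lower. mt-Nd6 lost its call in libraries with title numbers 1 to 8, where its log2 change was 0.32 (edgeR adjusted p = 0.184). Fitted on the GV3h groups alone, 8 of 10 members were called, where 8513 of all 15580 genes were. With counts summed over 4 title numbers, 1 of 22 members (mt-Rnr1) was called, where 4484 of all 22403 genes were. Control GV3h libraries numbered 1 to 4 and 5 to 8 also differed from each other, with mean coding shares of 0.169% and 0.109% and mean ratios of mt-Co1 to mt-Nd5 counts of 1.01 and 1.66; the meaning of the numbers is not in the labels.

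In MII eggs no member was called with TMM scaling, where 27.3% of all genes were called higher and 14.8% lower in Dis3 cKO (42.1% in either direction). In edgeR, 2 members had an unadjusted p under 0.05, and DESeq2 called 0 as well. The coding share was 0.414% to 0.756% in the 8 controls and 0.269% to 2.25% in the 16 Dis3 cKO eggs, so the mutants spread to both sides of the controls. Egg 15 held the highest share and by far the lowest ratio of gene to ERCC counts, 14.4 against a group median of 53.3. Per ERCC count 5 members were higher and 0 lower: mt-Nd1 (log2 change 0.75, SE 0.25), mt-Cytb (0.64, SE 0.19), mt-Nd6 (0.64, SE 0.18), mt-Rnr1 (0.57, SE 0.18) and mt-Nd4 (0.42, SE 0.17). On that scale 37.6% of all genes were called higher and 4.31% lower, with a median log2 change of all genes of 0.52.

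The difference between the Dis3 effects at MII and at GV was tested directly. 5 members had a smaller effect at MII, where 3.88% of all genes did and 9.28% had a larger one (13.2% in either direction): mt-Nd2 (difference in log2 change -1.42, SE 0.33, adjusted p = 0.00158), mt-Nd5 (-1.26, SE 0.34), mt-Tq (-1.53, SE 0.44), mt-Rnr2 (-0.95, SE 0.27) and mt-Rnr1 (-0.85, SE 0.25). Per ERCC count the calls were mt-Nd2 (-0.96, SE 0.27) and mt-Nd5 (-0.72, SE 0.28), where 0.696% of all genes were called lower and 29.4% higher. Without egg 15 the number was 11 rather than 5, among them all 7 coding genes, where 2685 of all 17365 genes were called. With counts summed over 4 title numbers it was 0 of 22 in edgeR, where 335 of all 22403 genes were called, and 8 members had an unadjusted p under 0.05. At GV3h 0 members differed from GV in edgeR (3 with an unadjusted p under 0.05, lowest adjusted p 0.0504, where 1.37% of all genes were called higher and 0.667% lower, 2.04% in either direction), and DESeq2 called 1, where it called 545 of all 17389 genes.

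**Figure D2:**
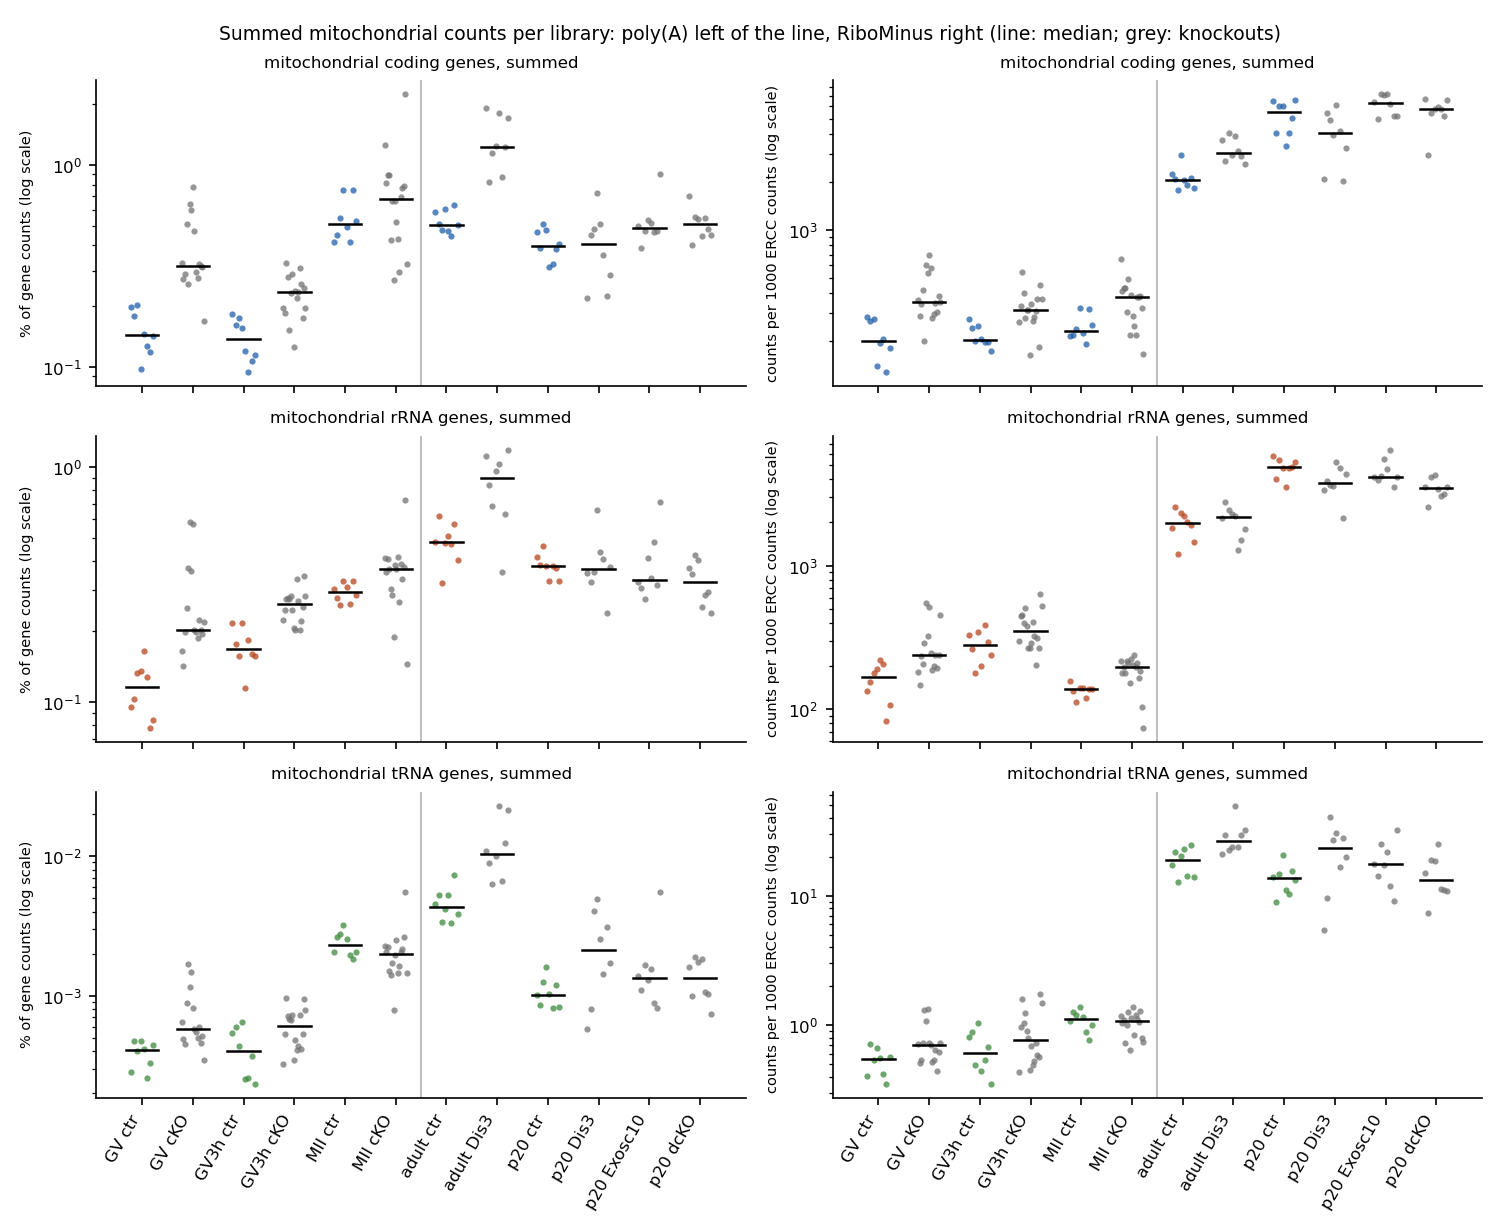
Summed counts of the 13 coding, 2 rRNA and 22 tRNA genes in each of the 119 libraries, as percent of gene counts (left column) and per 1000 ERCC counts (right column), both on log scales; each point is 1 oocyte, the bar is the group median, coloured points are controls and grey points knockouts. The coding share of all 8 adult Dis3 cKO oocytes lies above all 8 adult controls, and per ERCC count the 8 adult controls lie below the 8 p20 controls for coding and rRNA genes.

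In control oocytes the mitochondrial share of the poly(A) libraries was higher at MII than at GV. The 3 classes together made up 0.196% to 0.337% of gene counts in the 8 GV oocytes (median 0.269%) and 0.682% to 1.09% in the 8 MII eggs (median 0.809%). The ranges did not overlap. In controls the granulosa and cumulus cell markers summed to a median of 153 CPM at GV, 90.4 at GV3h and 101 at MII. In Dis3 cKO the medians were 106, 86.8 and 74.8 CPM. The part of such cells in the stage comparisons was not tested. Oligo-dT capture depends on poly(A) tails, and the part of tail length in these comparisons was not tested either. All 16 tested members were higher and 0 lower, where 22.7% of all genes were called higher and 35.8% lower (58.5% in either direction). mt-Nd2 went from 70.4 to 117.5 CPM at GV to 426 to 734 CPM at MII (log2 change 2.91, SE 0.29), the highest value of the coding genes. mt-Nd5 followed with 2.51 (SE 0.29), mt-Nd4 with 2.45 (SE 0.28), mt-Cytb with 2.23 (SE 0.29), mt-Nd1 with 2.08 (SE 0.33) and mt-Nd6 with 1.79 (SE 0.21). mt-Co1 rose least among them (1.43, SE 0.28); its level was 239 to 560 CPM at GV and 430 to 1365 CPM at MII, with overlap. mt-Rnr2 rose by 1.82 (SE 0.22) and mt-Rnr1 by 1.06 (SE 0.20), and the 7 tRNA genes by 1.55 to 3.68, mt-Tm the most.

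Counted against the spike-in, the members divided, where the ratio of gene to ERCC counts had a median of 138 at GV and 45.6 at MII. The median log2 change of all genes was -2.12 per ERCC count and -0.27 with TMM scaling, and 87.5% of all genes were called lower and 0.334% higher per ERCC count. Of the 16 members 5 were higher on that scale: mt-Nd2 (1.05, SE 0.22), mt-Nd5 (0.64, SE 0.22), mt-Nd4 (0.58, SE 0.20), mt-Tq (1.01, SE 0.36) and mt-Tm (1.81, SE 0.46). mt-Rnr1 (-0.83, SE 0.20) and mt-Co1 (-0.46, SE 0.22) were lower, turning the direction they had with TMM scaling. The other 9 did not pass the test, with values of -0.30 to 1.26. mt-Nd2 stood at 9.03 to 16.6 counts per 1000 ERCC counts at GV (median 11.2) and at 19.4 to 31.4 at MII (median 25.7), again without overlap. The coding class had a median of 200.1 counts per 1000 ERCC counts at GV and 231 at MII, with overlapping ranges of 127 to 282 and 191 to 323. The stages thus separated by coding counts on the scale of gene counts and overlapped on the scale of spike-in counts.

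The order among members shifted between the stages. The ratio of mt-Co1 to mt-Nd5 counts was 1.38 to 2.07 in the 8 control GV oocytes (median 1.87) and 0.577 to 1.148 in the 8 MII eggs (median 0.837). No MII egg reached the lowest GV oocyte. The 8 control GV3h oocytes ran from 0.913 to 1.76 (median 1.33) and overlapped both other stages. Their means were 1.01 in title numbers 1 to 4 and 1.66 in 5 to 8, so the ratio also varied within a stage. In Dis3 cKO oocytes the ratio was 0.886 to 1.78 at GV (median 1.31) and 0.692 to 1.22 at MII (median 0.861). The rRNA counts amounted to a median of 0.656 times the coding counts in control GV oocytes, 1.29 times at GV3h and 0.580 times at MII, with ranges of 0.477 to 1.39, 0.898 to 1.96 and 0.433 to 0.730.

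Between GV and GV3h, control oocytes changed in 1 member, mt-Rnr2, where 1.14% of all genes were called higher and 1.56% lower (2.71% in either direction). Its level was 551 to 1132 CPM at GV (median 832) and 875 to 1811 CPM at GV3h (median 1369), with a log2 change of 0.76 (SE 0.22, adjusted p = 0.0382) and of 0.97 per ERCC count (SE 0.24), where 0.380% of all genes were called higher and 0.299% lower. With counts summed over 4 title numbers edgeR called 0 of all 22403 genes in this comparison, so that setting does not bear on mt-Rnr2 in particular. In Dis3 cKO oocytes 7 members were lower at GV3h than at GV, where 9.88% of all genes were called lower and 7.42% higher (17.3% in either direction): mt-Nd6 (-0.97, SE 0.15), mt-Tq (-0.996, SE 0.26), mt-Nd5 (-0.93, SE 0.20), mt-Nd1 (-0.92, SE 0.23), mt-Co1 (-0.86, SE 0.20), mt-Cytb (-0.70, SE 0.20) and mt-Nd2 (-0.62, SE 0.19). Per ERCC count mt-Nd6 (-0.52) and mt-Nd5 (-0.44) remained lower, and mt-Tf (1.45) and mt-Rnr2 (0.52) were higher, where 36.1% of all genes were called higher and 0.949% lower. With counts summed over 4 title numbers 1 of 22 members was called lower, where 435 of all 22403 genes were called.

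The poly(A) libraries of Dis3 cKO oocytes also held more mitochondrial counts relative to other genes at MII than at GV. Of the 16 members 15 were higher and 0 lower, where 24.8% of all genes were called higher and 38.5% lower (63.3% in either direction), and mt-Rnr1 did not pass (0.21, SE 0.15). The log2 changes of the coding genes ran from 0.74 for mt-Co1 (SE 0.20) to 1.66 for mt-Nd4 (SE 0.20), with mt-Nd2 at 1.496 (SE 0.20). Per ERCC count mt-Rnr1 (-1.11, SE 0.15), mt-Co1 (-0.66, SE 0.16) and mt-Rnr2 (-0.44, SE 0.17) were lower, and mt-Tm (1.04, SE 0.32) and mt-Tl1 (0.96, SE 0.33) higher, where 82.3% of all genes were called lower and 1.31% higher. All 16 mutant MII eggs had fewer mt-Rnr1 counts per 1000 ERCC counts (12.2 to 49.8) than any of the 15 mutant GV oocytes (51.2 to 136).

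**Figure D3:**
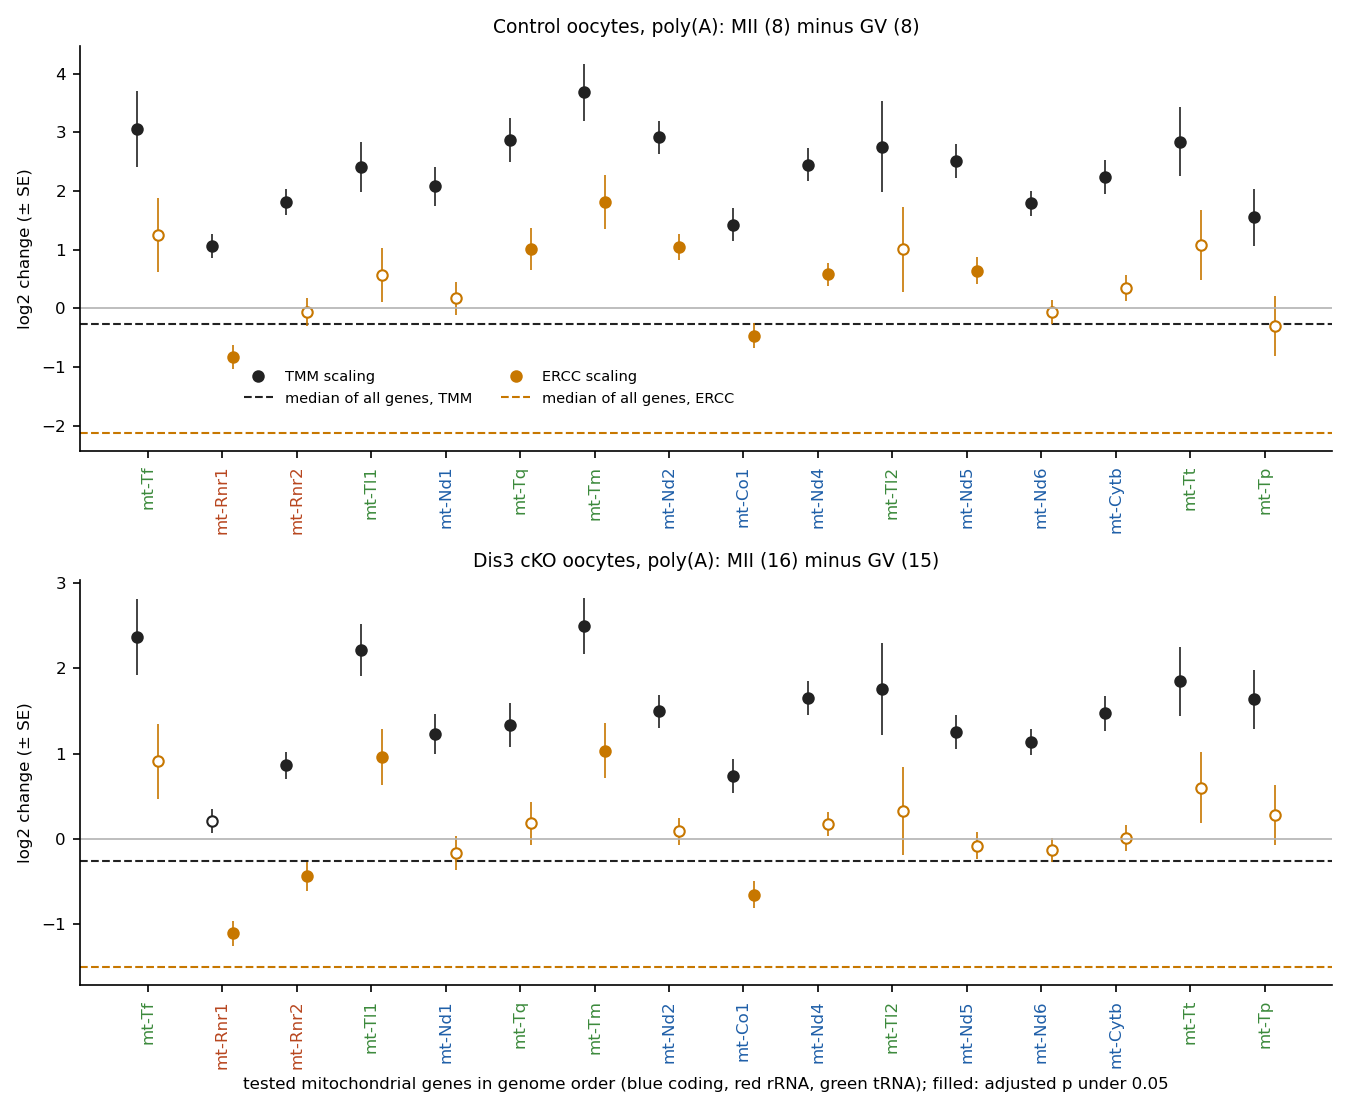
Log2 change from GV to MII of the 16 tested mitochondrial genes in control (top) and Dis3 cKO (bottom) oocytes of the poly(A) assay, with TMM scaling (black) and ERCC scaling (orange); bars are 1 SE, filled points have an adjusted p under 0.05, and dashed lines mark the median of all genes tested. With TMM scaling all points lie above 0, and with ERCC scaling mt-Rnr1 and mt-Co1 lie below 0 in both genotypes while all 16 stay above the median of all genes.

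In adult GV oocytes, random-primed total RNA showed a higher mitochondrial share in Dis3 cKO as well. Coding genes made up 0.447% to 0.635% of gene counts in the 8 controls (median 0.506%) and 0.827% to 1.91% in the 8 Dis3 cKO oocytes (median 1.23%), without overlap. Of the 21 tested members 20 were higher and 0 lower, where 15.7% of all 15334 genes tested were called higher and 12.4% lower (28.1% in either direction). The exception was mt-Tv, the tRNA between the rRNA genes (-0.32, SE 0.46, adjusted p = 0.656). The median log2 change was 1.27 for the coding, 0.72 for the rRNA and 2.08 for the 12 tested tRNA genes, against 0.026 for all genes tested. A tRNA gene of few counts could pass the filter through the Dis3 cKO libraries alone, so the tRNA median is a description only.

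The complex I gene mt-Nd5 had the largest value of the coding genes. Its level was 606 to 1087 CPM in controls (median 842) and 1683 to 4474 CPM in Dis3 cKO (median 2760), with a log2 change of 1.72 (SE 0.20). The neighbour upstream, mt-Nd4, was at 312 to 477 and 662 to 1579 CPM (1.44, SE 0.18). Neither gene had overlapping groups. mt-Nd2 rose by 1.35 (SE 0.18), mt-Cytb by 1.27 (SE 0.18) and mt-Nd1 by 1.17 (SE 0.18), while mt-Co1 and mt-Nd6 rose least, by 0.85 each (SE 0.13 and 0.19). mt-Co1 stood at 1186 to 1493 CPM in controls and at 1725 to 3959 CPM in Dis3 cKO. The ratio of mt-Co1 to mt-Nd5 counts was 1.27 to 1.96 in controls (median 1.57) and 0.644 to 1.16 in Dis3 cKO (median 0.8503), so no mutant oocyte reached a control. mt-Rnr1 (0.68, SE 0.21) and mt-Rnr2 (0.76, SE 0.19) rose less than any coding gene in value and their groups overlapped. The part of rRNA depletion in these values was not tested.

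The tRNA genes had the largest log2 values, at levels that were much lower than those of the coding genes. mt-Ts2, mt-Tl2 and mt-Tt rose by 2.72 (SE 0.36), 2.66 (SE 0.40) and 2.697 (SE 0.32). mt-Ts2 and mt-Tl2 lie side by side between mt-Nd4 and mt-Nd5, and mt-Tt lies next to mt-Cytb. mt-Tl2 stood at 0.557 to 3.68 CPM in controls (median 1.54) and at 4.96 to 23.6 CPM in Dis3 cKO (median 9.003), and mt-Tt at 0.685 to 2.37 and 6.55 to 19.9 CPM. Neither had overlapping groups. mt-Ti (2.37), mt-Tp (2.32), mt-Tc (2.18), mt-Ta (1.99), mt-Tq (1.80), mt-Tl1 (1.53), mt-Tf (1.16) and mt-Tm (0.89) also rose. mt-Tm stood at 12.4 to 32.8 CPM in controls and at 16.7 to 75.5 CPM in Dis3 cKO, with overlap. Reads on so short a gene can come from the precursor or from a neighbouring transcript as well as from the mature tRNA, and this was not tested.

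Per ERCC count fewer members were called. The ratio of gene to ERCC counts was 336 to 487 in controls (median 397) and 152 to 360 in Dis3 cKO (median 238), and the median log2 change of all genes was -0.52, with 40.1% of all genes called lower and 4.56% higher. On that scale 14 members were higher and 1 lower. The 5 coding genes mt-Nd5 (1.06, SE 0.15), mt-Nd4 (0.79, SE 0.15), mt-Nd2 (0.69, SE 0.16), mt-Cytb (0.62, SE 0.16) and mt-Nd1 (0.50, SE 0.16) were higher, while mt-Co1 (0.24, SE 0.16) and mt-Nd6 (0.21, SE 0.18) did not pass. Neither rRNA gene passed (mt-Rnr1 0.023, SE 0.19; mt-Rnr2 0.11, SE 0.18). Of the tRNA genes 9 were higher, by 0.82 to 2.03, and mt-Tv was lower (-1.05, SE 0.39, adjusted p = 0.0343). mt-Nd5 had 256 to 411 counts per 1000 ERCC counts in controls (median 339) and 553 to 967 in Dis3 cKO (median 666), without overlap.

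The adult libraries carry 4 title tags, AM1758 and AM1759 in controls and AM1713 and AM1757 in Dis3 cKO, with 4 libraries each. Mean coding shares were 0.545% and 0.514% for the control tags and 1.28% and 1.41% for the mutant tags. The mutant tags differed more in the tRNA genes, whose summed level averaged 90.4 CPM in AM1713 and 158 CPM in AM1757, against 43.3 and 49.3 CPM in the control tags. mt-Tl2 averaged 7.19 and 15.8 CPM and mt-Tt 7.56 and 14.4 CPM in AM1713 and AM1757. The ratio of mt-Co1 to mt-Nd5 counts averaged 1.06 and 0.752, and rRNA counts per 1000 ERCC counts 2408 and 1704, in the same order. With the 4 libraries of each tag summed, which leaves 2 sums per group, edgeR called 0 of all 20190 genes tested, so the 0 of 21 members called there (adjusted p 0.105 to 0.732) does not set them apart. An unadjusted p under 0.05 was found for 18 members and for 3577 of all genes. mt-Nd5 then had a log2 change of 1.68 (SE 0.23). Leaving out each library in turn, 18 of the 20 members were called higher in all 16 fits, mt-Tm in 8 and mt-Tf in 4.

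**Figure D4:**
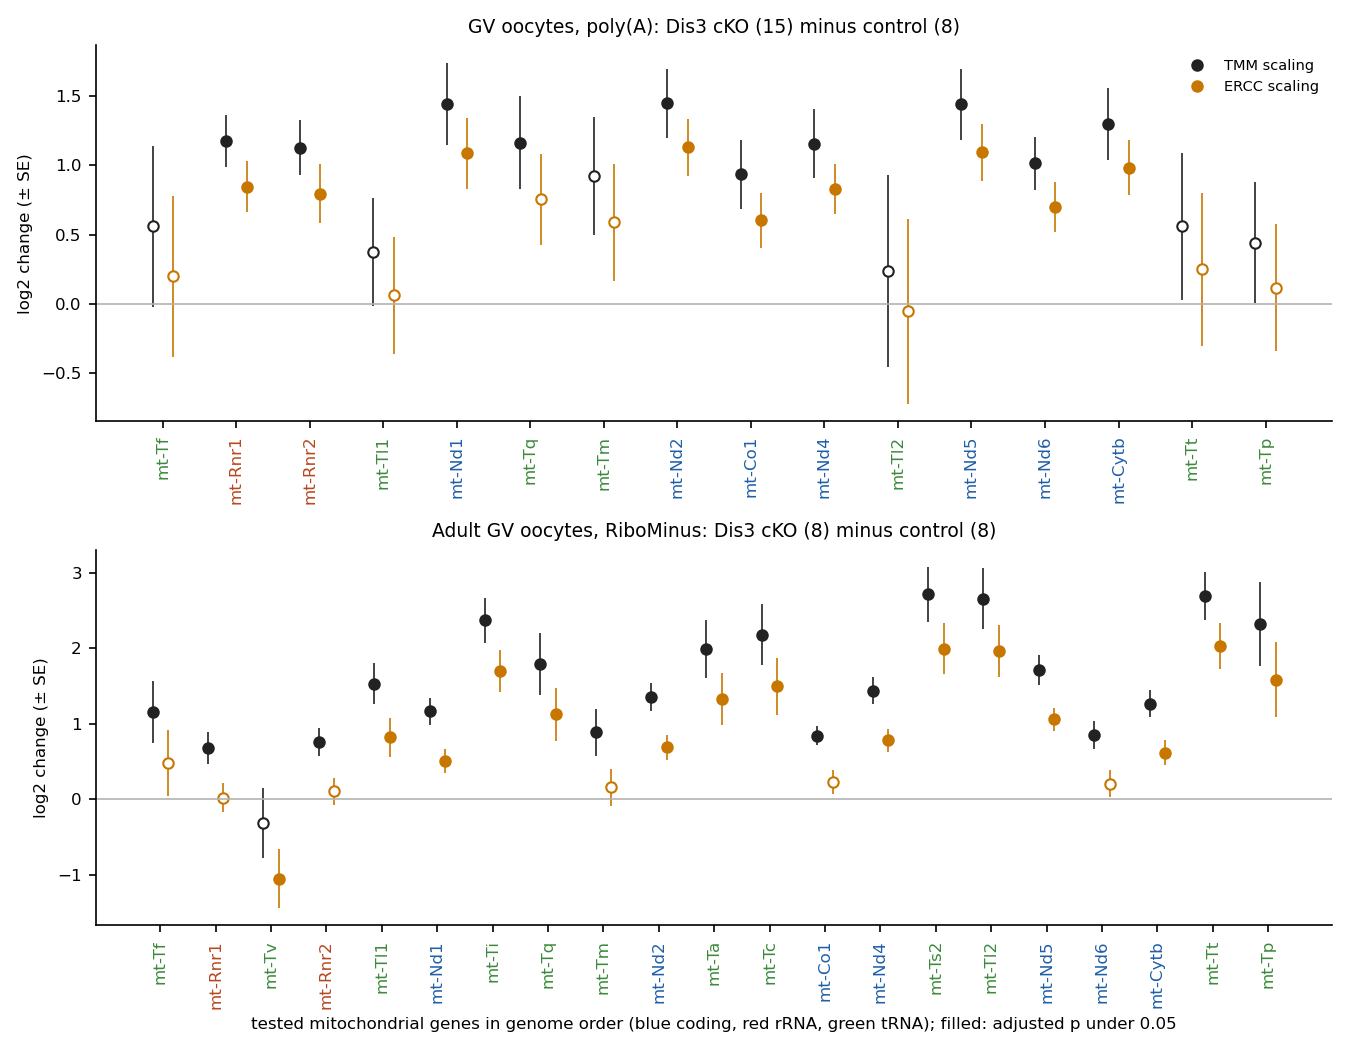
Log2 change in Dis3 cKO against control of the tested mitochondrial genes in genome order, for GV oocytes of the poly(A) assay (top, 15 against 8) and adult GV oocytes of the RiboMinus assay (bottom, 8 against 8), with TMM (black) and ERCC (orange) scaling; bars are 1 SE and filled points have an adjusted p under 0.05. Coding and rRNA genes are filled with both scalings in the top panel, while in the bottom panel both rRNA genes, mt-Co1 and mt-Nd6 are open with ERCC scaling.

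In p20 oocytes no coding or rRNA gene passed the test in Dis3 cKO, and 1 tRNA gene did. The coding share was 0.312% to 0.513% in the 8 controls (median 0.399%) and 0.219% to 0.728% in the 8 Dis3 cKO oocytes (median 0.406%), with mutants on both sides of the control range. In edgeR 1 of 17 members was higher and 0 lower, where 3.61% of all 15882 genes tested were called higher and 3.76% lower (7.37% in either direction). The 1 called was mt-Tl2, with a log2 change of 2.52 (SE 0.79, adjusted p = 0.0429). It was at 0.107 to 1.02 CPM in controls (median 0.365) and at 0 to 7.84 CPM in Dis3 cKO (median 1.898), with 2 mutant oocytes below every control. The 7 coding genes had log2 values of -0.22 to 0.27, none past the test. The 8 tested tRNA genes all had values above 0 (1 of 8 below 0 per ERCC count), with a median of 1.53 against 0.0037 for all genes tested. A gene of few counts could pass the filter through the knockout libraries alone, so these signs and this median are no support for a rise. mt-Ts2 had median levels of 0.055 and 0.076 CPM in controls of tags 1 and 2, and 0.64 and 0.80 CPM in Dis3 cKO. The uncalled tRNA genes nearest the threshold were mt-Ti (1.56, SE 0.50, edgeR adjusted p = 0.0511), mt-Tt (2.13, SE 0.77, adjusted p = 0.0876) and mt-Ts2 (2.81, SE 1.02, adjusted p = 0.0923). Per ERCC count 0 members were called in edgeR, with 8 at an unadjusted p under 0.05, where 0.781% of all genes were called higher and 5.31% lower.

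2 p20 libraries stand apart: oocyte 1_4 of Dis3 cKO and oocyte 2_4 of Exosc10 cKO had the lowest ratios of gene to ERCC counts of their groups, 547 and 582 against group medians of 1087 and 1307, and the highest mitochondrial shares, 1.39% and 1.62% against medians of 0.774% and 0.839%. Without oocyte 1_4 the mt-Tl2 call in Dis3 cKO was lost (2.12, SE 0.80, adjusted p = 0.120), and edgeR called 0 members, with 4 at an unadjusted p under 0.05, where 1030 of all 16224 genes were called. Without oocyte 2_4 of the other genotype, 2 were called, where 1290 of all 16117 genes were. DESeq2 called 3 of 17 members with all libraries, where it called 1510 of all 15882 genes. The part of these libraries' low gene to ERCC ratio in their mitochondrial values was not tested.

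The effect of Dis3 loss differed between adult and p20 oocytes in a direct test over all RiboMinus groups. All 7 tested coding genes had a larger effect in adults, where 5.34% of all genes did and 3.98% had a smaller one (9.32% in either direction): the difference in log2 change was 1.47 for mt-Cytb (SE 0.28, adjusted p = 0.000268), 1.43 for mt-Nd5 (SE 0.31), 1.41 for mt-Nd2 (SE 0.32), 1.37 for mt-Nd1 (SE 0.30), 1.30 for mt-Nd4 (SE 0.27), 1.03 for mt-Nd6 (SE 0.29) and 0.81 for mt-Co1 (SE 0.23). No rRNA or tRNA member passed. mt-Rnr2 missed the threshold (0.75, SE 0.26, adjusted p = 0.0535), and the 12 tRNA genes had differences of -0.83 to 1.18. Per ERCC count 5 coding genes remained, without mt-Co1 and mt-Nd6, where 1.88% of all genes were called higher and 1.49% lower. With libraries summed per tag edgeR called 0 of 21 members, where 70 of all 22815 genes were called, with 10 members at an unadjusted p under 0.05. Age and collection of libraries cannot be told apart here.

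Among controls alone, adult and p20 oocytes differed most in the tRNA genes and in the yield per spike-in. With TMM scaling 8 members were higher in adults and 0 lower, where 8.69% of all genes were called higher and 10.4% lower (19.1% in either direction). 7 of the 8 were tRNA genes, with mt-Tv at 3.17 (SE 0.44) and mt-Tm at 2.79 (SE 0.41) the largest, and the other was mt-Nd1 (0.70, SE 0.21). mt-Tm stood at 1.73 to 5.55 CPM in p20 controls and at 12.4 to 32.8 CPM in adult controls, and mt-Tv at 0.742 to 2.06 and 3.59 to 21.1 CPM, both without overlap. Per ERCC count 10 members were lower in adults and 2 higher, where 85.7% of all genes were called lower and 0.417% higher, with a median of -1.69 over all genes. mt-Tv (1.44, SE 0.43) and mt-Tm (1.10, SE 0.35) were the 2 higher. All 7 coding genes were lower per ERCC count, by -1.61 for mt-Nd6 to -1.01 for mt-Nd1, and so were mt-Rnr1 (-1.34), mt-Rnr2 (-1.30) and mt-Tl1 (-0.96). With libraries summed per tag 2 of 21 members were called higher, where 237 of all 22815 genes were called.

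Exosc10 cKO oocytes at p20 had no member called in edgeR, where 3.95% of all genes were called higher and 3.50% lower (7.45% in either direction); 2 members had an unadjusted p under 0.05 and DESeq2 called 1, where it called 1529 of all 15882 genes. That one was mt-Co1 (DESeq2 log2 change 0.47, adjusted p = 0.0485), and edgeR gave 0.47 (SE 0.17, adjusted p = 0.0858). Fitted on the Exosc10 cKO and control groups alone, edgeR called it too (adjusted p = 0.00442), where 1198 of all 14424 genes were called. With libraries summed per tag edgeR did not call it (0.46, adjusted p = 0.255), where 174 of all 20911 genes were called. mt-Co1 stood at 817 to 1345 CPM in controls (median 1085) and at 1170 to 1879 CPM in Exosc10 cKO (median 1539), so 1 mutant oocyte lay inside the control range and the other 7 above it. Per ERCC count 0 members were called and 0 had an unadjusted p under 0.05 in edgeR, where 1.35% of all genes were called higher and 0.944% lower. The 8 tested tRNA genes had a median log2 change of 1.06 with TMM scaling and 0.69 per ERCC count, with 0 called. The limit set by the filter on low counts holds for these medians too. The median of all genes tested with TMM scaling was 0.015.

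In the double mutants (dcKO), mt-Co1 rose while mt-Rnr2 fell. With 26.6% of all genes called higher and 27.1% lower (53.7% in either direction), 1 of 17 members was in each direction. mt-Co1 was at 1386 to 2451 CPM in the 8 dcKO oocytes (median 1945), above all 8 controls, with a log2 change of 0.71 (SE 0.17, adjusted p = 0.000611) and of 0.62 per ERCC count (SE 0.22, adjusted p = 0.0215). It was called in all 16 fits that left out 1 library and with libraries summed per tag (0.67, adjusted p = 0.0102). None of the other 6 coding genes passed, with values of -0.33 for mt-Cytb to 0.19 for mt-Nd5. Fitted on the dcKO and control groups alone, edgeR called 1 of 13 members higher and 3 lower, where 8219 of all 14239 genes were called. In that fit mt-Cytb (-0.32, adjusted p = 0.0355) and mt-Rnr1 (-0.28, adjusted p = 0.0386) were called lower. With libraries summed per tag edgeR called neither mt-Cytb (-0.38, adjusted p = 0.205) nor mt-Rnr1 (-0.32, adjusted p = 0.158). In those sums 6641 of all 20911 genes were called. The ratio of mt-Co1 to mt-Nd5 counts was 1.505 to 2.06 in controls (median 1.82) and 2.10 to 3.56 in dcKO (median 2.61), without overlap. By median level per length mt-Co1 came right after mt-Rnr2 in dcKO (1259 CPM per kb) and in Exosc10 cKO (996), and after both rRNA genes and mt-Cytb in controls (702). It was above mt-Rnr1 in 6 of 8 dcKO and 4 of 8 Exosc10 cKO libraries, so in Exosc10 cKO these 2 did not separate. In p20 Dis3 cKO mt-Co1 came after both rRNA genes (764) and was above mt-Cytb in 6 of 8 libraries.

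mt-Rnr2 fell by 0.42 on the log2 scale in dcKO (SE 0.17, adjusted p = 0.0310) and by 0.52 per ERCC count (SE 0.16). Its level was 2262 to 3198 CPM in controls (median 2679) and 1625 to 2879 CPM in dcKO (median 2303), with overlap. The title tags differed here: libraries of tag 1 were at 2606 to 3198 CPM in controls and 2543 to 2879 CPM in dcKO, and those of tag 2 at 2262 to 2760 and 1625 to 2063 CPM. Only under tag 2 did the groups separate. The part of rRNA depletion in the mt-Rnr2 values was not tested. The call was lost in 5 of the 16 fits that left out 1 library (control 1_3, 2_1 or 2_3, or dcKO 2_1 or 2_4) and with libraries summed per tag (-0.44, adjusted p = 0.135). Per ERCC count 1 member was called in each direction as well, where 17.8% of all genes were called higher and 20.4% lower.

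The double mutants were also compared with each single mutant; these comparisons share the dcKO libraries with the one above. Against Dis3 cKO, 1 member was higher and 7 lower, where 26.0% of all genes were called higher and 25.5% lower (51.5% in either direction). mt-Co1 was higher (0.69, SE 0.17). mt-Ts2 (-3.28, SE 1.07), mt-Tl2 (-3.03, SE 0.82), mt-Tt (-2.13, SE 0.78), mt-Ti (-1.30, SE 0.50), mt-Tv (-1.04, SE 0.42), mt-Rnr1 (-0.42, SE 0.15) and mt-Rnr2 (-0.41, SE 0.17) were lower. With libraries summed per tag the calls of mt-Rnr1 (edgeR adjusted p = 0.0791), mt-Rnr2 (0.165) and mt-Tv (0.212) were lost. mt-Co1, mt-Ts2, mt-Tl2, mt-Tt and mt-Ti kept theirs and mt-Ta gained one, 6 of 21 members where 5953 of all 20911 genes were called. mt-Tt stood at 0.402 to 4.56 CPM in Dis3 cKO (median 1.63) and at 0 to 1.91 CPM in dcKO (median 0.309). Per ERCC count mt-Co1 (0.93, SE 0.22), mt-Ts2 and mt-Tl2 kept their calls, where 36.9% of all genes were called in either direction and 9.92% lower. Without oocyte 1_4 of Dis3 cKO, 5 members were called, where 8067 of all 16224 genes were. Against Exosc10 cKO 3 members were lower and 0 higher, where 25.0% of all genes were called lower and 24.2% higher (49.2% in either direction): mt-Nd4 (-0.58, SE 0.19), mt-Cytb (-0.49, SE 0.20) and mt-Rnr2 (-0.47, SE 0.17). With libraries summed per tag mt-Cytb (edgeR adjusted p = 0.105) and mt-Rnr2 (0.119) lost their calls and mt-Nd4 kept its call (0.0332), where 5559 of all 20911 genes were called. Without oocyte 2_4 of Exosc10 cKO 1 was called, where 7632 of all 16117 genes were. Per ERCC count mt-Nd4 and mt-Rnr2 passed, where 17.0% of all genes were called lower and 14.6% higher. mt-Co1 did not differ between dcKO and Exosc10 cKO beyond the test (0.24, SE 0.17, adjusted p = 0.240).

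**Figure D5:**
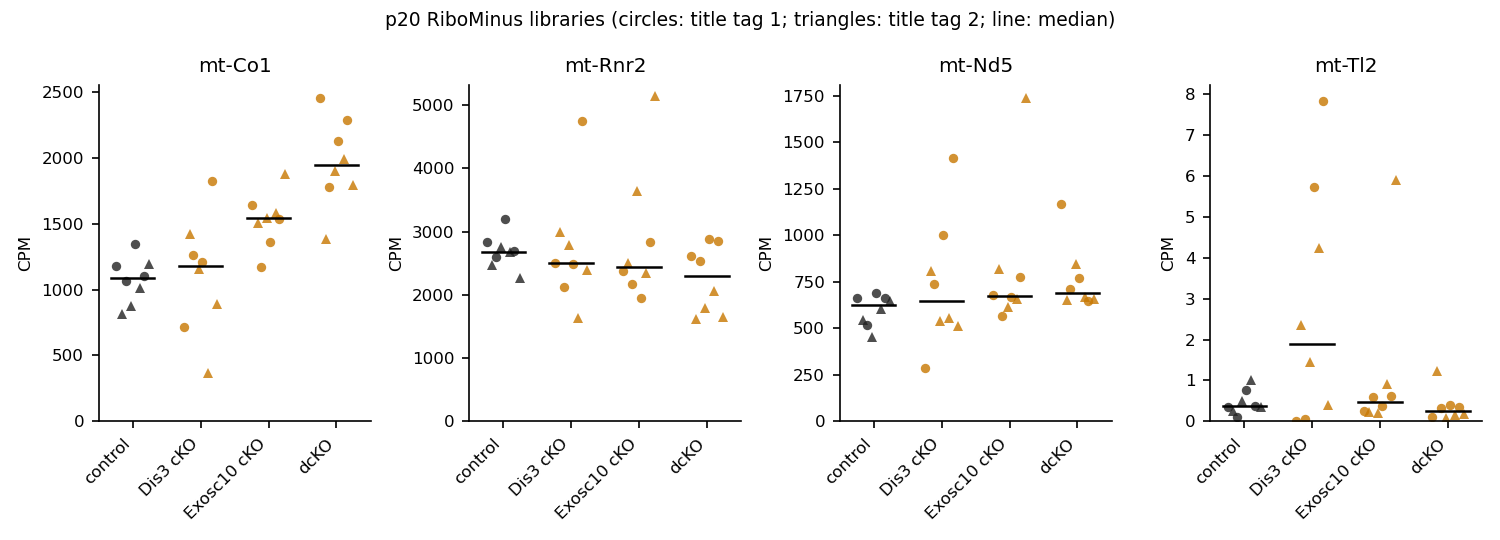
CPM of mt-Co1, mt-Rnr2, mt-Nd5 and mt-Tl2 in each p20 RiboMinus oocyte (linear y axes from 0), by genotype on the x axis; circles are title tag 1, triangles title tag 2, bars the medians of 8 oocytes. All 8 dcKO oocytes lie above all 8 controls for mt-Co1, and for mt-Rnr2 the dcKO oocytes of tag 2 form the lower group.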

How the data were processed

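Single mouse oocytes were sequenced after poly(A) selection (71 libraries) or as ribosome-depleted total RNA (48 libraries). The authors deposited whole-number read counts per gene and per ERCC spike-in, 1 table per library. The submitters' processing notes name mm10, cutadapt 2.5, FastQC 0.11.8, STAR 2.7.2a, SAMtools 1.9, HTSeq 0.9.1, R 3.5.1, DESeq2 1.24.0 and SEACR, with no role. Strand setting and the handling of reads matching several places are not given in the sources used here; either could change counts of overlapping or copied genes. The CUT&Tag samples were not used here.

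Counts were tested over all genes with edgeR 4.0.16 (quasi-likelihood F test, TMM scaling, filterByExpr, R 4.3.3, limma 3.58.1). P-values were adjusted by Benjamini-Hochberg with a threshold of 0.05, and SE is the log2 change divided by the root of F. The 6 poly(A) groups, the 2 adult groups and the 4 p20 groups each shared a fit, and all 6 RiboMinus groups were fitted for comparisons across age. ERCC scaling set library size to summed ERCC counts. Comparisons with the same controls share libraries. The filter counts libraries over all groups of a fit, so a gene of few counts can pass through the groups where it is high. Gene counts per library were 4843964 to 15412200 (poly(A)) and 8492102 to 35429028 (RiboMinus), and ERCC counts 34158 to 585335 and 7089 to 192786, so precision is lowest for tRNA genes. The fitting step was tested on simulated data.

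Alternatives were ERCC scaling, DESeq2 1.42.0, other filters, fits on fewer groups, a replicate block, summed tags and left-out libraries. Coding and rRNA genes are named with values, tRNA genes where called or at an extreme of their class, and up to 5 genes of the nuclear machinery list per comparison. Samples with the same title number were not treated as pairs in the main fits. In no pair of groups did all 8 correlations of deviations exceed 0.1. For GV control with GV Dis3 cKO 5 did (-0.17 to 0.32), and 5 did for GV3h Dis3 cKO with MII control (0.031 to 0.32). Partial pairing is therefore not excluded. Members and lists were chosen with earlier results of these data known.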

Additional observations from a re-analysis of the deposited data

Results flagged for a closer look

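Among 135 sets of 8 libraries (15 measures in each poly(A) control group and each RiboMinus group), 15 held a library far from the others of its group, all of them RiboMinus; at 1 in 20, chance gives 6.75. Of these, 9 were oocyte 2_4 of Exosc10 cKO. Its coding share was 0.902% of gene counts where the others reached 0.532%, its rRNA share 0.711% where they reached 0.481%, and its tRNA share 0.00549% where they reached 0.00166%. It stood at 1965 CPM for mt-Rnr1, 1160.5 CPM for mt-Nd1, 1336 CPM for mt-Nd2, 778 CPM for mt-Nd4, 1737 CPM for mt-Nd5 and 1974 CPM for mt-Cytb, where the next highest oocytes had 1280.0, 772, 767, 419, 816 and 1124 CPM. Oocyte 1_4 of Dis3 cKO at p20 had an rRNA share of 0.657%, where the others reached 0.437%, and 4740.4 CPM of mt-Rnr2, where they reached 2993 CPM. Both had the lowest gene to ERCC ratio of their group, and the part of that ratio was not tested.

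The remaining 4 were single values. Adult control AM1758_4 had 2958 coding counts per 1000 ERCC counts, where the others reached 2239. Adult Dis3 cKO AM1757_1 had 49.6 tRNA counts per 1000 ERCC counts, where the others reached 32.2. Oocyte 1_2 of dcKO had 2946 coding counts per 1000 ERCC counts, where the others had 5200.1 or more. Oocyte 1_1 of dcKO had 1168 CPM of mt-Nd5, where the others reached 843 CPM.

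The Dis3 effect differed between groups in 12 direct tests. At MII it was smaller than at GV, with differences in log2 change of -0.85 for mt-Rnr1 (adjusted p = 0.0147), -0.95 for mt-Rnr2 (0.00964), -1.53 for mt-Tq (0.0118), -1.42 for mt-Nd2 (0.00158) and -1.26 for mt-Nd5 (0.00791). In adults it was larger than at p20, by 1.37 for mt-Nd1 (adjusted p = 0.00174), 1.41 for mt-Nd2 (0.00216), 0.81 for mt-Co1 (0.0168), 1.30 for mt-Nd4 (0.000959), 1.43 for mt-Nd5 (0.00130), 1.03 for mt-Nd6 (0.0159) and 1.47 for mt-Cytb (0.000268). Of all genes 3.88% were called smaller and 9.28% larger at MII, and 5.34% larger and 3.98% smaller in adults. Per ERCC count 2 calls were left for MII and 5 for adults, beside 0.696% and 1.88% of all genes. Summed over 4 title numbers, 0 of 22 members (335 of all 22403 genes) were called for MII minus GV. Summed per tag, 0 of 21 members (70 of all 22815 genes) were called for adults minus p20.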

How the results depend on the processing

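Of 148 recomputed counts of members called, 111 stayed within 1.5 times the reported count. Of 639 recomputed single-member values, 574 kept direction and call, 19 gained and 23 lost the call, and 23 turned direction; of 176 class differences 1 moved. Causes were not tested.

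ERCC scaling gave 5 calls for Dis3 cKO at MII, 7 for control and 5 for Dis3 cKO MII against GV, 4 for Dis3 cKO GV3h against GV, 2 for the effect at MII minus GV, 0 for Dis3 cKO at p20 and 3 for dcKO against Dis3 cKO. ERCC size factors gave a tRNA class difference of 1.42 for control MII against GV. DESeq2 gave 1 call for the effect at GV3h minus GV (545 of all 17389 genes). At p20 it gave 3 for Dis3 cKO and 1 for Exosc10 cKO (1510 and 1529 of all 15882 genes). Without the filter on low counts Dis3 cKO at p20 had 0 (1089 of all 35778 genes). Fits on the compared groups alone gave 8 for GV3h (8513 of all 15580 genes) and 1 for Exosc10 cKO (1198 of 14424). They gave 4 for dcKO (8219 of 14239) and 4 for dcKO against Dis3 cKO (7406 of 13685). Sums over 4 title numbers, added after seeing the data, gave 1 for GV3h Dis3 cKO, 0 for control GV3h against GV, 1 for Dis3 cKO GV3h against GV and 0 for the effect at MII minus GV. In the same order 4484, 0, 435 and 335 of all 22403 genes were called. Sums per tag gave 0 for adult Dis3 cKO (0 of all 20190 genes). At p20 they gave 0 for Dis3 cKO (286 of all 20911 genes), 1 for dcKO (6641) and 1 for dcKO against Exosc10 cKO (5559). They gave 2 for control adult against p20 (237 of all 22815 genes) and 0 for the effect in adult minus p20 (70).

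Without MII Dis3 cKO 15 the effect at GV3h minus GV had 1 call (517 of all 17365 genes). That at MII minus GV had 11 (2685 of all 17365 genes). Without GV Dis3 cKO 6 and 8 the effect at GV3h minus GV had 1 (574 of all 17266 genes). Without Dis3 cKO 1_4, p20 Dis3 cKO had 0 and dcKO against Dis3 cKO 5 (1030 and 8067 of all 16224 genes). Without Exosc10 cKO 2_4, p20 Dis3 cKO had 2 (1290 of all 16117 genes). In that fit dcKO against Dis3 cKO had 9 of 17 (8438) and dcKO against Exosc10 cKO 1 (7632). Leaving out each library in turn gave 18 to 20 calls in adults and 1 to 3 for dcKO. With all libraries, 28.1% and 53.7% of all genes were called in these 2 comparisons.

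The samples share only a title number. On title numbers 1 to 8, Dis3 cKO at MII had 1 call and the effect at GV3h minus GV had 2, both without the replicate block (5971 and 463 of all 16554 genes) and with it (5816 and 397), and mt-Nd6 in Dis3 cKO at GV3h lost its call (0.32, and 0.29 with the block, edgeR adjusted p = 0.184 and 0.212); the replicate block changed no other count of calls by over 1.5 times.

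These uncalled values turned sign. mt-Nd2 in Dis3 cKO at MII had -0.0093 without the filter, -0.18 without egg 15, -0.012 on title numbers 1 to 8, -0.043 there with the replicate block, -0.044 without GV 6 and 8, and -0.12 in sums of 4. In p20 Dis3 cKO, ERCC scaling gave mt-Rnr1 -0.20, mt-Co1 -0.31, mt-Nd4 -0.25 and mt-Nd5 -0.11; mt-Co1 had -0.0014 without the filter, -0.12 without 1_4 (0.013 without 2_4 of Exosc10 cKO) and -0.013 with the replicate block, and mt-Nd4 -0.054 without 1_4 (0.12 without 2_4). In Exosc10 cKO, mt-Rnr2 had -0.034 with ERCC scaling and -0.11 without 2_4 (0.054 without Dis3 cKO 1_4), and mt-Cytb -0.038 without 2_4 (0.16 without 1_4). In dcKO, mt-Nd1 had -0.059 with ERCC scaling and -0.019 in tag sums. For control MII against GV, ERCC scaling turned the called mt-Rnr1 (-0.83), mt-Rnr2 (-0.065), mt-Co1 (-0.46) and mt-Nd6 (-0.066). Depth limits the tRNA genes most, since many libraries hold only a few counts of each.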

Other observations

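Of 49 nuclear genes for mitochondrial transcription, RNA processing, stability and decay and for mitochondrial DNA replication, 47 were tested in the poly(A) and p20 libraries and 44 in the adults. In GV Dis3 cKO 8 were higher and 3 lower, where 13.6% of all genes were called higher and 8.33% lower. At GV3h the counts were 10 and 9, beside 22.9% and 15.7% of all genes, at MII 12 and 6, beside 27.3% and 14.8%, and in adults 11 and 5, beside 15.7% and 12.4%. At p20 they were 3 and 2 for Dis3 cKO, beside 3.61% and 3.76%, 1 and 1 for Exosc10 cKO, beside 3.95% and 3.50%, and 21 and 5 for dcKO, beside 26.6% and 27.1%. Per ERCC count 2 were higher and 8 lower at GV, beside 7.27% and 13.3% of all genes, 6 and 3 at GV3h, beside 17.5% and 10.6%, 18 and 0 at MII, beside 37.6% and 4.31%, and 1 and 13 in adults, beside 4.56% and 40.1%. At p20 these counts were 0 and 2 for Dis3 cKO, beside 0.781% and 5.31%, 0 and 1 for Exosc10 cKO, beside 1.35% and 0.944%, and 15 and 5 for dcKO, beside 17.8% and 20.4%. Mterf2, of a family of mitochondrial transcription termination factors, rose with log2 changes of 3.35 at GV, 4.32 at GV3h, 4.35 at MII, 3.63 in adults and 4.44 in dcKO. Mrm1, which methylates the large mitochondrial rRNA, rose by 4.23 at GV, 5.35 at GV3h and 2.72 in dcKO and had a log2 change of -2.47 in p20 Dis3 cKO. Polrmt, the mitochondrial RNA polymerase, had log2 changes of -0.89 in GV Dis3 cKO and -0.87 in Exosc10 cKO, and Twnk, the mitochondrial DNA helicase, of -1.07 at GV. In control oocytes 26 of the 47 were lower and 7 higher at MII than at GV, where 35.8% of all genes were called lower and 22.7% higher. Per ERCC count 46 were lower and 0 higher, where 87.5% of all genes were called lower and 0.334% higher. With TMM scaling Mrm2 had a log2 change of -3.82, Hsd17b10 of -3.44 and Polrmt of -2.65.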
